A study of Mus musculus with 4 samples.

Results

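The genes described here lie at the start of mouse chromosome 11 and were selected by this position and by a minimum level. They are the genes whose lowest coordinate, on either strand, lies within the first 10 Mb of the chromosome (GENCODE vM21 annotation of GRCm38) and that reached at least 1 CPM (counts scaled to library size) in 2 or more libraries, with Pik3ip1, Xbp1 and Uqcr10 left out by name. Of 152 genes of this stretch in the count table, 39 had no count, 43 had counts below that minimum and 70 passed, which leaves 67 members out of 35275 genes in the table. The lowest coordinate is 3125904 for the first member and 9118103 for the last; 59 are protein-coding and 8 are pseudogenes or noncoding transcripts. The stretch was picked because genotype differences had been seen to crowd there. Every genotype value below, in either pair of libraries or in the fit, is therefore a description without a test.

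Natural killer (NK) cells, lymphocytes of innate immunity that destroy tumour cells, were the source of the RNA. They had been sorted out of the spleen by the surface markers CD3 (absent) and NK1.1 (present). There were 4 groups of 1 library each. They were mice labelled Irf4-/- injected into a vein with B16-F10 melanoma cells 20 days earlier, wild-type (WT) C57BL/6 mice injected in the same way, mice labelled Irf4-/- that were not injected, and WT mice that were not injected. The last 2 groups are called control. Which piece of Irf4 was removed, in which strain the allele was made and how many animals gave a library are not in the labels.

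Mammalian genes that lie side by side on a chromosome often have unrelated functions and separate promoters. They are inherited together, however, and mutant mouse lines can carry a block of neighbouring genes from another strain, commonly called a passenger segment, in addition to the engineered change. Such blocks are best known beside the targeted gene, and Irf4 itself is on chromosome 13. The count tables hold no DNA variants, so the strain of origin of this stretch of chromosome 11 was not tested, and the genes are called here by their position alone.

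Libraries held 15878159 to 21104881 counts, of which the members held between 0.538% and 0.573%. Irf4 was at 12.7 CPM under the label Irf4-/- injected against 3.07 CPM in WT injected mice. Under the label Irf4-/- control it was at 11.8 CPM against 4.40 CPM in WT control mice, so counts over the whole gene do not show a loss and every genotype direction rests on the labels. All 10 NK markers examined were found, at a summed 11300 to 13630 CPM, against 46.6 to 54.3 CPM for 7 T cell genes. The WT injected library stood apart: its median absolute log2 ratio to the other libraries over 11998 genes was 0.192 to 0.221, against 0.120 to 0.151 among the other 3. The control pair of libraries, which does not use WT injected, is given beside each genotype value for that reason.

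With the label Irf4-/-, 3 members exceeded a 2-fold difference upward and 4 downward in both the injected and the control pair of libraries. Higher were Upp1, Slc35e4 and Dusp18, and lower were Nefh, Camk2b, Emid1 and the noncoding transcript 8430429K09Rik. Differences of this kind, in the same direction in both pairs and with counting intervals that exclude equal levels, were found in 7 of 67 members (10.4%), beside 0.858% of the 11998 genes tested. By direction these were 0.700% of all genes for higher and 0.158% for lower. In the injected pair taken alone 9 members were that far apart, beside 3.87% of all genes, with 5 higher (2.13%) and 4 lower (1.73%). In the control pair taken alone they were 8, beside 2.31% of all genes, with 4 higher (1.78%) and 4 lower (0.525%). The pairs share no library. Most neighbours lay close to equal levels: 46 of 67 members (68.7%) were within 1.5-fold in both pairs, as were 83.8% of all genes. In bulk RNA, fewer cells that make a transcript and less transcript per cell cannot be told apart.

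**Figure D1:**
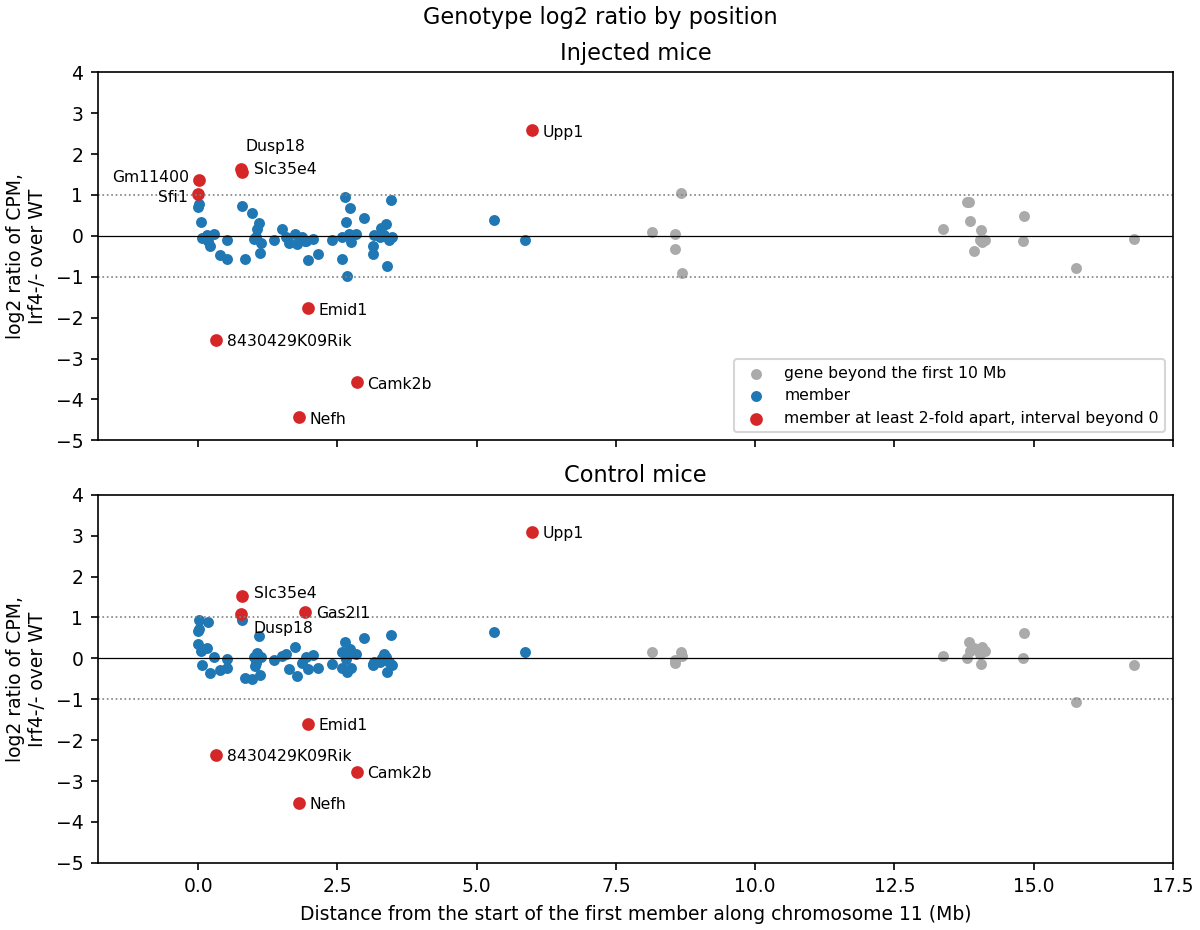
Log2 ratio of CPM, Irf4-/- over WT, of each gene (points) against its distance in Mb from the start of the first member along chromosome 11, for injected mice above and control mice below. Dotted lines mark 2-fold. Named red members are beyond it in that pair with a 95% counting interval that excludes 0, and they lie among blue members near 0. Grey genes, those between 10 and 20 Mb of the chromosome, are not coloured by call. Among them Fignl1 (1.04, injected pair) and Meis1 (-1.06, control pair) met the same rule in a single pair, and 0 were called in both pairs.

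Camk2b encodes the beta subunit of calcium and calmodulin dependent protein kinase II, a kinase best known from neurons. Injected mice gave 123 counts with the Irf4-/- label against 1487 in WT, and control mice 284 counts with the Irf4-/- label against 2594 in WT. Scaled to library size these are 6.60 CPM in Irf4-/- injected against 80.2 in WT injected, and 17.9 CPM in Irf4-/- control against 122.6 in WT control. In injected mice the log2 ratio was -3.58 (95% counting interval -3.88 to -3.34), and in control mice it was -2.77 (-2.96 to -2.60). Both libraries labelled Irf4-/- lay far below both WT libraries. With deposited FPKM, which is scaled to transcript length, Camk2b stood at 1.60 and 4.34 in the Irf4-/- injected and control libraries and at 19.3 and 29.8 in the WT injected and control libraries.

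Nefh, which encodes the heavy neurofilament protein of nerve axons, had almost no counts in the libraries labelled Irf4-/-. There was 1 count in Irf4-/- injected against 63 in WT injected, and 10 counts in Irf4-/- control against 179 in WT control. The log2 ratio without a prior count was -5.99 in the injected pair, with a wide counting interval of -11.31 to -3.45. In the control pair it was -3.75 (-4.84 to -2.84). Its level was low in every library, at most 8.46 CPM or 2.12 FPKM, and it passed the minimum of 1 CPM in the WT libraries alone.

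Emid1, which encodes a secreted protein with an EMI domain, was the third protein-coding gene with less transcript. Emid1 had 376 counts (20.2 CPM) in Irf4-/- injected against 1283 (69.2 CPM) in WT injected, and 394 (24.8 CPM) in Irf4-/- control against 1594 (75.3 CPM) in WT control. Its log2 ratios were nearly equal, at -1.77 (-1.95 to -1.61) among injected and -1.60 (-1.77 to -1.45) among control mice. The noncoding transcript 8430429K09Rik had 7 counts in Irf4-/- injected against 50 in WT injected, and 7 in Irf4-/- control against 57 in WT control. It is on the plus strand, and its start lies 2 bases from that of Rnf185, a ubiquitin ligase gene of the endoplasmic reticulum on the minus strand, whose log2 ratios were 0.06 (-0.11 to 0.22) and 0.03 (-0.16 to 0.22) in the injected and control pairs. The 3′ end of Emid1 (minus strand) lies 172 bases from the 3′ end of Rhbdd3, a rhomboid family gene on the plus strand, which stood at -0.59 (-0.93 to -0.27) and -0.25 (-0.59 to 0.08).

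Dusp18, Slc35e4 and Tcn2 are next to each other, and each was higher under the Irf4-/- label. Dusp18, a dual-specificity phosphatase gene, had 190 counts in Irf4-/- injected against 60 in WT injected and 150 in Irf4-/- control against 93 in WT control, with log2 ratios of 1.62 (1.23 to 2.10) and 1.08 (0.72 to 1.49). Slc35e4, a member of the nucleotide sugar transporter family, is on the minus strand, and its 3′ end lies 5725 bases from the 3′ end of Dusp18 on the plus strand. Slc35e4 had 476 counts in Irf4-/- injected against 159 in WT injected and 346 in Irf4-/- control against 157 in WT control, with log2 ratios of 1.56 (1.31 to 1.84) and 1.54 (1.27 to 1.83). Tcn2, which encodes the vitamin B12 carrier transcobalamin, is on the minus strand too, with its 3′ end 2528 bases from the start of Slc35e4, and was at 0.73 (0.61 to 0.85) and 0.94 (0.82 to 1.07). Pes1, a ribosome assembly factor and the next member, lay on the other side of 0, at -0.56 (-0.70 to -0.42) and -0.49 (-0.64 to -0.35).

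Upp1 encodes uridine phosphorylase, which splits uridine for reuse of its ribose and base. It is the last member along the chromosome and had the largest ratio upward, from few counts. There were 58 counts in Irf4-/- injected against 8 in WT injected, and 32 in Irf4-/- control against 3 in WT control. Without a prior count the log2 ratio was 2.85 (1.78 to 4.13) for injected mice and 3.83 (2.15 to 6.18) for control mice. Upp1 passed the minimum of 1 CPM through the libraries labelled Irf4-/- alone, as Nefh and 8430429K09Rik passed it through the WT libraries alone. These 3 genes could therefore hardly be members without differing by genotype.

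Annotated promoters are shown for the 5 protein-coding genes of this group that RefSeq's promoter table lists (Nefh has no entry there). Where a gene had several, the run with the most matches to the motifs below was taken, then the one of highest coordinate. Which start these cells used was not measured. Each run is 300 bases of GRCm38.p6 on the gene's own strand, from 250 bases before the transcript start to 50 after it. They are Dusp18 at chr11:3894990-3895289 (plus strand), Slc35e4 at chr11:3914615-3914914 (minus), Emid1 at chr11:5152181-5152480 (minus), Camk2b at chr11:6065699-6065998 (minus) and Upp1 at chr11:9117853-9118152 (plus). Capitals mark an AP-1 element, the only match in these 5 runs to the 3 motifs searched.
Dusp18: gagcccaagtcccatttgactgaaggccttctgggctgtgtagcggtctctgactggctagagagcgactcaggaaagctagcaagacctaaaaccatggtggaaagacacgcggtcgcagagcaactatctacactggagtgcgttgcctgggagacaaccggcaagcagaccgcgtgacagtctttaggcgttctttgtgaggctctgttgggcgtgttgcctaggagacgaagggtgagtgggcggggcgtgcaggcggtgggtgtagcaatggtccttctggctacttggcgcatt
Slc35e4: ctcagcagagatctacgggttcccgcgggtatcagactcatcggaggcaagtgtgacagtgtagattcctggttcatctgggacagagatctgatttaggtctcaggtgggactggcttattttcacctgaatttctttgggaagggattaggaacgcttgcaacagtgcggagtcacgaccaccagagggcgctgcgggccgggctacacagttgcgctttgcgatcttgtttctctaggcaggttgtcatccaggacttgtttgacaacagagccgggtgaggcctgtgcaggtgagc
Emid1: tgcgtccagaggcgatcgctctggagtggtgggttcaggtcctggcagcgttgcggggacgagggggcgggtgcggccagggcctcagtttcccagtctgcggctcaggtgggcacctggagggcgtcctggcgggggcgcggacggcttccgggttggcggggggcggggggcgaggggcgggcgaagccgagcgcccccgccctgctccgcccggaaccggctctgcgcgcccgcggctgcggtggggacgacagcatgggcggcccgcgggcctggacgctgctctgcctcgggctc
Camk2b: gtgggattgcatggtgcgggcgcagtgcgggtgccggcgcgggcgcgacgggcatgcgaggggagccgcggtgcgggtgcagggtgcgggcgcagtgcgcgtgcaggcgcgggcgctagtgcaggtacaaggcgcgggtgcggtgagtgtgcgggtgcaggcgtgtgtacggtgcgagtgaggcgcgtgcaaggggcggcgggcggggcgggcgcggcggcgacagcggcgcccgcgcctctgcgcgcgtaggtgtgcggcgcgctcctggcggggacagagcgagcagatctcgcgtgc
Upp1: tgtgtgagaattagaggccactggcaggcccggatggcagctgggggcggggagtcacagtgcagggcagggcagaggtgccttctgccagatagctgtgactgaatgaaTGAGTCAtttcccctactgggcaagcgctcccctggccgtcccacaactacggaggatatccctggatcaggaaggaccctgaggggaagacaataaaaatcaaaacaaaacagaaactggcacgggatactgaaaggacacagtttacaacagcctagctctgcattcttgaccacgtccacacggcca

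The motifs, searched on both strands, were an interferon regulatory factor (IRF) element of GAAA, any 2 bases and GAAA, a composite ETS-IRF element of GGAA, any 2 bases and GAAA, the kind IRF4 binds with PU.1, and the AP-1 element TGANTCA. RefSeq's table held 74 promoters of 51 members and 32851 promoters in all. The IRF element was in 2.70% of the members' promoters (Ccm2 and Pold2) and 3.44% of all promoters. The ETS-IRF element was in 2.70% (Ap1b1 and Nudcd3) and 2.72%, and TGANTCA in 6.76% (Ccm2, Lif, Limk2 and Upp1) and 7.81%. In Upp1 the element begins 140 bases before the annotated transcript start of the run shown and 45 bases before another annotated start. A match describes letters in this window and is not a measured binding site.

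The additive fit of genotype and injection over all 4 libraries (edgeR quasi-likelihood) called 7 members higher and 5 lower under the Irf4-/- label, 12 of 67, beside 1.22% and 0.258% of all genes. These were the 7 genes above together with Sfi1, Gm11400, Tcn2, Nudcd3 and Pes1. Of the alternative methods, limma-voom called the same members. DESeq2 did not call Nudcd3, Pes1 or 8430429K09Rik, and called Pisd-ps1 as higher. Sfi1 encodes a centrin-binding protein of the centrosome and had 312.5 CPM in Irf4-/- injected against 153.2 in WT injected, and 269.4 in Irf4-/- control against 169.8 in WT control. The log2 ratio of Sfi1 was 1.03 (0.96 to 1.09) for injected and 0.67 (0.60 to 0.73) for control mice. Nudcd3, a co-chaperone gene of the dynein motor and the next member after Camk2b, was at 0.43 (0.33 to 0.52) and 0.50 (0.40 to 0.60). In all 12 genes both libraries labelled Irf4-/- lay on the same side of both WT libraries. A call by genotype on these same 4 libraries favours that order, so it is no further support.

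**Figure D2:**
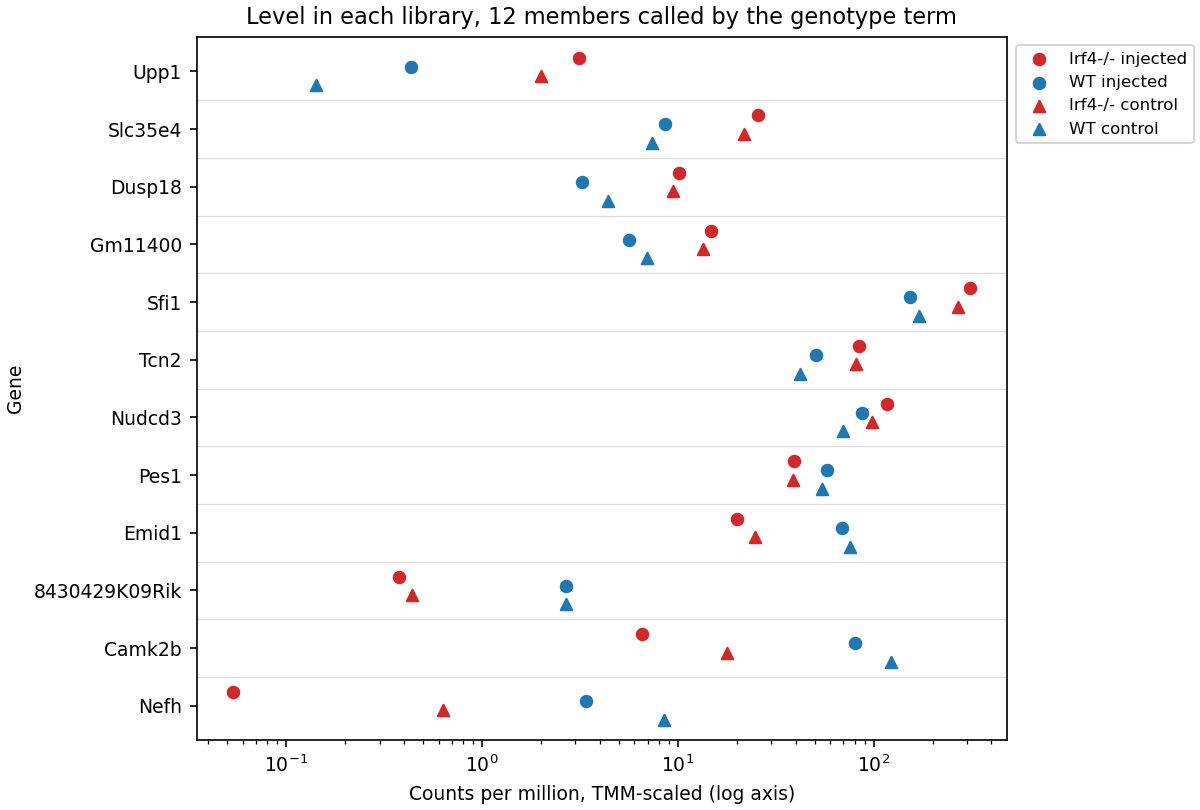
Level in each library of the 12 members called by the genotype term of the fit, in CPM on a log axis; red marks stand for libraries labelled Irf4-/-, blue for WT, circles for injected and triangles for control mice. In every row the red marks lie on one side of the blue ones, an order that choosing the rows by genotype favours. Rows run from Nefh with 0.0536 CPM in Irf4-/- injected at the bottom to Upp1 with 3.11 CPM in Irf4-/- injected at the top.

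The first 4 members along the chromosome, which overlap or adjoin, were higher in both pairs. Besides Sfi1 they were Gm11400, a processed pseudogene at 1.37 (1.06 to 1.73) in the injected and 0.94 (0.64 to 1.26) in the control pair, the antisense transcript Gm11399 at 0.78 and 0.72, and Pisd-ps1, a pseudogene of phosphatidylserine decarboxylase, at 0.70 and 0.34. Gm11399 and Gm11400 lie within the span of Sfi1, and 23.8% of the exonic bases of Gm11399 are also exonic in Sfi1 on the opposite strand. Drg1, the next member and also higher in both pairs (values below), shares 167 exonic bases with Sfi1 on the same strand. At least 95% identity with other transcripts covered 81.1% of the Pisd-ps1 transcript in the case of Pisd and 57.4% in the case of Pisd-ps2. Neither copy is a member. In Irf4-/- injected against WT injected, unscaled counts were 5381 against 3284 for Pisd-ps1, 420 against 325 for Pisd and 1194 against 729 for Pisd-ps2. In Irf4-/- control against the deeper WT control library they were 4397 against 4620, 297 against 310 and 895 against 992. A difference of this kind was thus not particular to Pisd-ps1. The Pes1 transcript likewise matches the pseudogenes Gm5910 over 60.45% and Gm5472 over 58.13% of its length. Whether counting used strand is not given in the sources used here, so the reads of these neighbours and copies cannot be told apart with certainty.

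By position, 7 of 18 members with a lowest coordinate between 3 and 4 Mb were called by the genotype term, which called 1.48% of all genes, against 1 of 16 between 4 and 5 Mb (Nefh), 2 of 17 between 5 and 6 Mb (Emid1 and Camk2b), 1 of 13 between 6 and 7 Mb (Nudcd3) and 1 of 3 further on (Upp1). The next 10 Mb, from 10 to 20 Mb, held 18 tested genes and 0 calls, 2-fold in both pairs or by the genotype term. Of all genes 0.858% and 1.48% were called, so 18 genes are too few to mark an edge. Fignl1 at 1.04 in the injected pair and Meis1 at -1.06 in the control pair were beyond 2-fold there in a single pair. At the limit itself, the last members Tns3, Hus1 and Upp1 had log2 ratios of 0.38, -0.09 and 2.58 in the injected pair and 0.65, 0.17 and 3.09 in the control pair. The first 3 genes beyond it, Zpbp, Ikzf1 and Gm12000, were at 0.08, 0.03 and -0.33 in the injected pair and 0.15, -0.12 and -0.04 in the control pair. At the minimum level, the members Lif, Aebp1 and Gas2l1 had a second-highest library of 1.32, 1.61 and 1.72 CPM, and Gm11948, Gm11973 and 4921536K21Rik just missed it with 0.966, 0.900 and 0.853.

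The same contrast is described here for other places in the genome. At least 2-fold in both pairs were 0.63% of 952 genes on the rest of chromosome 11, 0.806% of 10916 genes on other chromosomes and 1.02% of 591 genes in the first 10 Mb of the other 19 chromosomes. The largest number of calls by the genotype term in the first 10 Mb of any other chromosome was 2, of 33 genes on chromosome 17 and of 30 on X. Some of these stretches hold few genes. At least 2-fold in both pairs were 2 of 17 genes on chromosome 4, 1 of 9 on chromosome 14, 1 of 33 on chromosome 17 and 2 of 30 on X. Within 5 Mb of Irf4 on chromosome 13, 0 of 28 genes other than Irf4 were called by either rule, where 0.858% and 1.48% of all genes were; 1 of these 28 was 2-fold apart in the injected pair alone.

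**Figure D3:**
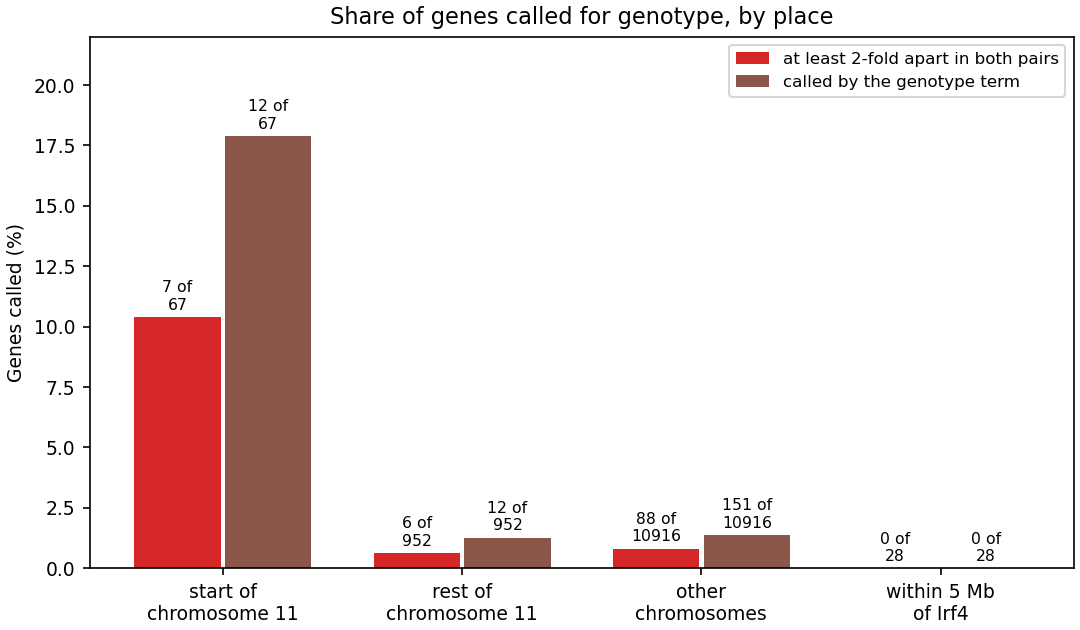
Share of genes in percent that were at least 2-fold apart in both genotype pairs (red) or called by the genotype term of the fit (brown), by place in the genome, with the counts above the bars. The start of chromosome 11 stands at 10.4% and 17.9%, every other place at 1.38% or less.

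Measured by distance between libraries, the members lay further apart between genotype labels than within them, in the contrast that chose the stretch. The root mean square log2 ratio over the 67 members was 0.737 to 1.19 between a library labelled Irf4-/- and a WT library, against 0.396 between both Irf4-/- libraries and 0.456 between both WT libraries. Over all 11998 genes the same measure was 0.352 to 0.506 between genotypes and 0.342 and 0.472 within Irf4-/- and within WT. This measure gives most weight to the largest ratios, among them Nefh, Upp1 and 8430429K09Rik, which passed the minimum through a single genotype. The median absolute log2 ratio of the members was 0.236 to 0.269 between genotypes, 0.136 within Irf4-/- and 0.188 within WT. Over all genes it was 0.120 to 0.221, 0.138 and 0.209. The median signed ratio over members was near 0 in both pairs, at -0.03 (-0.10 to 0.03 over genes) in the injected and 0.01 (-0.11 to 0.10) in the control pair. The choice of the stretch used these same differences.

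**Figure D4:**
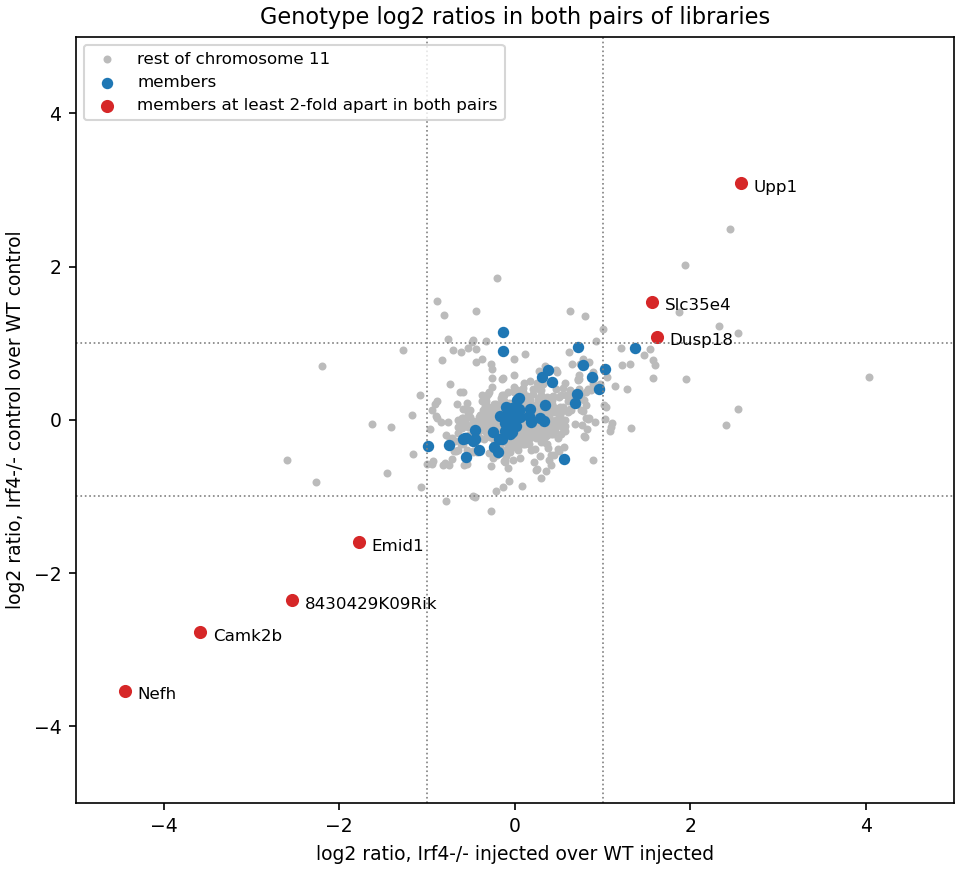
Log2 ratio of Irf4-/- over WT in injected mice (x axis) and in control mice (y axis) for the 67 members (blue and red) and the rest of chromosome 11 (grey), 1 point per gene, with dotted lines at 2-fold. The 7 red members are beyond 2-fold in both pairs, from Nefh at -4.44 and -3.54 to Upp1 at 2.58 and 3.09.

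Smaller differences in the same direction in both pairs were seen as well. Taken alone, the injected pair put the counting interval above 0 for 18 members (24.9% of all genes) and below 0 for 23 (25.1% of all genes). The control pair did so for 22 (17.1% of all genes) and 21 (16.5% of all genes). The counting interval lay on the same side of 0 in both pairs for 13 members that were higher (7.63% of all genes) and 14 that were lower (6.39% of all genes). Beyond those with values above, the higher ones were Drg1, Castor1, the pseudogene Ube2d-ps and Nacad. Drg1, a GTPase of translation, was at 0.34 and 0.19 in the injected and control pairs. Castor1, an arginine sensor of the mTORC1 pathway, was at 0.31 and 0.55, Ube2d-ps at 0.96 and 0.41, and Nacad at 0.88 and 0.56. Among the lower ones Morc2a, an ATPase of chromatin silencing, was at -0.57 and -0.23, Mrps24, a mitochondrial ribosomal protein gene, at -0.56 and -0.24, Znrf3, a ubiquitin ligase that removes Wnt receptors, at -0.45 and -0.25, and Osm, a cytokine of the interleukin 6 family, at -0.41 and -0.40. Limk2, a kinase of the actin regulator cofilin, was at -0.24 and -0.36, Nf2, which encodes the tumour suppressor merlin, at -0.18 and -0.25, and Thoc5, a subunit of an mRNA export complex, at -0.19 and -0.42. Ccdc117 and Ccm2 were lower by less, at -0.11 and -0.14 and at -0.09 in each. Counting intervals cover counting error only and narrow with depth, so an abundant gene can leave 0 with a small difference.

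By number of reads, members beyond 2-fold in both pairs were 4 of 16 members with a mean below 10 CPM, 2 of 21 between 10 and 50 CPM and 1 of 30 (Camk2b) above, where 1.99%, 0.725% and 0.133% of all genes of those levels were. Of the 4 with few reads, Nefh, Upp1 and 8430429K09Rik passed the minimum only through the genotype in which they were higher, so nothing is read from that share. The 6 members with the most reads included Pisd-ps1, given above at 0.70 in the injected and 0.34 in the control pair. Ppia, which encodes cyclophilin A, had 631.5 CPM in Irf4-/- injected against 554.6 in WT injected and 656.5 in Irf4-/- control against 670.2 in WT control. Ewsr1, an RNA-binding protein gene, was at -0.12 and 0.03, Myo1g, a myosin of blood cells, at 0.29 and 0.03, Purb at 0.01 and 0.11, and Dbnl, an actin-binding adaptor, at 0.33 and -0.02 in the injected and control pairs.

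Grouped by role, genotype differences were spread thinly, with 0 or 1 members per direction beyond 2-fold in both pairs in each list but 1. The lists were drawn from general knowledge. Some of their genes lie outside the stretch, among them Pno1, Rab1a and Vps54 further along chromosome 11, and others were too low to be members. Of 7 members among 10 listed genes of metabolism and transport, 2 were higher (Upp1, which passed the minimum through the Irf4-/- libraries alone, and Slc35e4) and 0 lower, where 0.700% of all genes were higher and 0.158% lower. The list had medians of 0.56 in the injected and 0.29 in the control pair, beside -0.00358 and -0.000418 over all genes. With so few genes the injected median is the value of Mtfp1 alone, whose counting interval was -0.09 to 1.30. In the control pair Mtfp1 lay on the other side of 0, at -0.51 (-1.24 to 0.13). Of 9 cytoskeleton members (10 listed) 1 was lower (Nefh), and of 10 signalling members (12 listed) 1 was higher (Dusp18) and 1 lower (Camk2b). Of 4 listed extracellular genes Emid1 alone was a member. None of 10 members of RNA and ribosome assembly (13 listed), 5 of membrane traffic (12 listed) and 2 interleukin 6 family cytokines (Osm and Lif) passed 2-fold in both pairs, with medians of -0.05, -0.03 and -0.29 in the injected and -0.13, -0.05 and -0.18 in the control pair. The 23 members in no list held 1 that was lower, 8430429K09Rik. Single-pair differences beyond 2-fold were seen in Sfi1 and Gm11400 in the injected pair and in Gas2l1, which links actin to microtubules, in the control pair (22 against 12 counts).

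Injection, which the choice of genes did not use, was tested in the same fit. Among members 2 fell and 0 rose after B16-F10 injection, beside 0.392% of all genes that fell and 0.333% that rose (edgeR quasi-likelihood test, Benjamini-Hochberg adjustment over 11998 genes). The 2 genes were 2.99% of the members, where either direction was called in 0.725% of all genes. Ccdc117 was at 76.9 CPM in Irf4-/- injected against 126.4 in Irf4-/- control and at 83.0 CPM in WT injected against 139.8 in WT control. Its fitted log2 change was -0.73 (SE 0.09, adjusted p 0.00751 by edgeR; range over the alternatives 2.38e-08 to 0.224), and both injected libraries were below both control libraries. Camk2b had a fitted log2 change of -0.91 (SE 0.16, adjusted p 0.0374 by edgeR), with log2 ratios of -1.42 (-1.75 to -1.13) in Irf4-/- mice and -0.61 (-0.71 to -0.52) in WT mice. Camk2b was not called by limma-voom (adjusted p 0.0619; range over the alternatives 1.77e-09 to 0.847). The spread behind these p-values is the departure of 4 single libraries from additivity, with 1 residual degree of freedom, and not the spread between animals.

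Nefh was lower after injection too, at 1 against 10 counts in Irf4-/- mice and 63 against 179 in WT mice, with a fitted log2 change of -1.56 (SE 0.42) that did not pass (adjusted p 0.131 by edgeR); without a filter on low counts it did (adjusted p 0.00161, range over the alternatives 0.00161 to 0.737). Between single libraries, 2 members were at least 2-fold lower after injection in Irf4-/- mice (Nefh and Camk2b), beside 1.97% of all genes in either direction and 1.12% for lower. In WT mice 3 members were 2-fold apart, beside 4.83% of all genes, of which 2 were higher (Gas2l1 and Gm11944; 2.96% of all genes) and 1 lower (Nefh; 1.87% of all genes). In all, 12 members (17.9%) had an unadjusted p below 0.05 for injection, beside 14.2% of all genes. Over the members the median injection log2 ratio was 0.0072 in Irf4-/- and 0.00291 in WT mice. The members' median absolute log2 ratio for injection was that of all genes or below it: 0.136 against 0.138 in Irf4-/- mice and 0.188 against 0.209 in WT mice. For genotype, from the same 4 libraries, these were 0.237 against 0.192 in the injected pair and 0.236 against 0.120 in the control pair. Genotype differences chose the stretch and injection did not, so raised genotype values are built into the choice and the contrast with injection is not a test. The difference between the genotypes' injection responses could not be tested with 1 library per group; it was largest for Gas2l1 (0.29 in Irf4-/- and 1.56 in WT mice) and Mtfp1, a mitochondrial fission gene (0.45 and -0.63), each from at most 56 counts in a library.

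**Figure D5:**
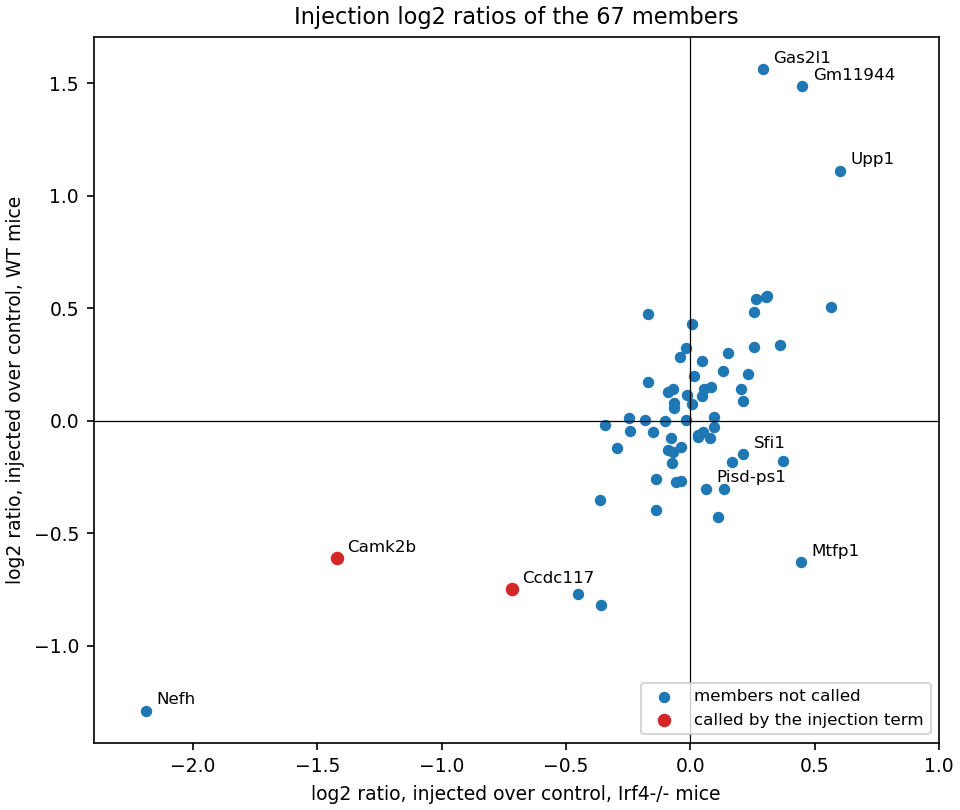
Log2 ratio of injected over control libraries in mice labelled Irf4-/- (x axis) and in WT mice (y axis), 1 point per member, with the members called by the injection term in red. Camk2b at -1.42 and -0.61 and Ccdc117 at -0.72 and -0.75 are the called members, and most others lie near 0 on both axes.

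Transcripts of other spleen cells differed between the libraries beside these values. Erythroid genes summed to 108.5 CPM in Irf4-/- injected against 18.1 in WT injected and 44.4 in Irf4-/- control against 37.4 in WT control, with 5 of 6 higher in the injected pair by their counting intervals. B cell genes summed to 47.4 CPM in Irf4-/- injected against 27.9 in WT injected and 68.6 in Irf4-/- control against 64.8 in WT control, with 5 of 7 and 1 of 7 higher. Monocyte and macrophage genes summed to 73.6 CPM in Irf4-/- injected against 90.3 in WT injected, with 6 of 11 lower and 1 higher, and to 60.3 in Irf4-/- control against 39.0 in WT control, with 6 of 11 higher. Dendritic cell genes summed to 14.4 CPM in Irf4-/- injected against 9.87 in WT injected and to 16.3 in Irf4-/- control against 12.1 in WT control, with 2 of 5 higher and 0 lower in each pair. Platelet genes summed to 6.38 to 9.76 CPM. No marker of these lists was at 0 in any library, and their part in the members' values was not tested.

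Pik3ip1, an inhibitor of phosphoinositide 3-kinase, begins in the same 10 Mb and was left out by name. It was at 3.97 CPM in Irf4-/- injected against 120 in WT injected and at 4.21 in Irf4-/- control against 24.1 in WT control.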

How the data were processed

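RNA of NK cells from spleen was sequenced in bulk, with 1 library per group. The authors deposited read counts per gene, as whole numbers without normalization, and FPKM values made from them: all 72455 FPKM values with a count returned, within 0.01 bp, a whole number as gene length. TopHat, edgeR and the build mm10 are named, per the submitters' processing notes. Not given in the sources used here were the counter, its annotation and its strand setting. Of 35275 gene identifiers 34490 matched a GENCODE vM21 symbol.

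Scaling used TMM, the trimmed mean of M values (edgeR 4.0.16, R 4.3.3). Log2 ratios of CPM carry a prior count of 2 unless stated, and 95% Clopper-Pearson intervals cover counting error only, since PCR reads are not independent molecules. A gene was called in a pair at 2-fold with the interval excluding equal levels, a rule of size. The fit was edgeR's quasi-likelihood test with additive terms for genotype and injection, over 11998 genes with at least 1 CPM in 2 libraries, called at an adjusted p of 0.05 (prior 9.62 degrees of freedom, biological coefficient of variation 9.98%); it was tested on simulated data. Intervals of medians are exact order-statistic intervals over genes. At these depths 3 counts, the limit that a count of 0 allows, are 0.142 to 0.189 CPM. Transcript copies were matched at 95% identity over at least 200 bases.

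The members, role lists, marker lists and alternatives were chosen with earlier results of these data known. Named are the genes of the selection rule, all members called by either fit term or in both pairs, the 6 most abundant, those at each limit, and members whose intervals agree in side in both pairs, the last chosen after their values were seen. Alternatives were other scalings, prior counts, folds, filters, limits of the stretch, FPKM with a pseudocount of 0.1, DESeq2 1.42.0 and limma-voom (limma 3.58.1).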

Additional observations from a re-analysis of the deposited data

Results flagged for a closer look

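Members were picked out where the injection log2 ratio had opposite signs in the genotypes with both counting intervals away from 0; with 1 library per group the difference itself was not tested. Pisd-ps1 was at 0.0628 in Irf4-/- mice and -0.302 in WT mice. Sfi1, its neighbour, was at 0.214 in Irf4-/- mice and -0.149 in WT mice. Dbnl was at 0.167 in Irf4-/- mice and -0.184 in WT mice, and Ewsr1 at -0.0641 in Irf4-/- mice and 0.0772 in WT mice. All 4 are abundant members, and each ratio is within 1.5-fold.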

How the results depend on the processing

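With 3 members at least 2-fold higher and 4 lower in both pairs, a fold of 1.5 gave 7 higher, a fold of 3 gave 1 higher, and a mean of at least 5 CPM gave 2 lower. Either pair alone, an alternative chosen after seeing the data that leaves out a WT library and its partner, gave 4 to 5 higher (5 without WT control) and 4 lower. Of 7 higher and 5 lower members called by the genotype term, DESeq2 gave 3 lower, a minimum of 5 CPM gave 3 lower, and leaving out injection as a term gave 0 higher and 1 lower (Emid1). Of 2 members that fell with injection, limma-voom gave 1 (Ccdc117) and leaving out genotype as a term gave 0; with no filter on low counts 1 member rose (Gm11944). Other scalings, prior counts, limits of the stretch and FPKM kept these counts within 1.5 times. Of 288 alternative log2 ratios for 24 named members, 0 reversed and 1 left its counting interval: Nefh in injected mice was at -3.06 with FPKM and a pseudocount of 0.1. The median genotype ratio of the members is so near 0 that its sign carries no call. No paired analysis was possible because each group has 1 library and the labels give no replicate numbers. Depth limits Nefh, Upp1 and 8430429K09Rik, with 10 counts or fewer in the lower group.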
